A study of Mus musculus with 6 samples.

Results

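The 7 genes considered encode subunits of the GABA-A receptor: Gabra2, Gabra3, Gabra6, Gabrb1, Gabrb2, Gabrd and Gabrg1. Their members were all probes that the platform annotation maps to these genes, which gave 14 of the 45281 probes on the array, for 6 of the 7 genes. The expression of Gabra2 was not analysed here. RNA came from cerebella of postnatal day 21 male mice of a Black Swiss X CD1 cross, from 3 Sp4 hypomorphs (genotype Sp4neo-/-) and 3 wild-type (WT) littermates. Sp4 is a zinc-finger transcription factor that binds GC-rich promoter elements, and a hypomorphic allele lowers a gene product without necessarily removing it. The labels give the cerebellum as the tissue with no sorting of cells, so a level is a mixture over its cell types.

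GABA-A receptors are chloride channels built as a ring of subunits around a central pore, and they open when the inhibitory transmitter GABA binds. Alpha and beta subunits form the GABA binding sites, and a gamma or delta subunit helps, together with alpha, to set where the receptor sits and which drugs act on it. In the cerebellum, granule cells are known for receptors with the alpha6 and delta subunits, which lie outside synapses and carry tonic inhibition, whereas Bergmann glia, the radial astrocytes of the molecular layer, are known for gamma1.

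No subunit probe passed the test for a difference between the Sp4 hypomorph and WT. Of the 9 probes that could be tested, which cover 6 genes, 3 had higher and 6 had lower values in the hypomorph, and 0 passed in limma when p-values were adjusted by Benjamini-Hochberg across the 19515 tested probes (threshold 0.05). The adjusted p was 0.999 for each of them, and 0 of the 9 had an unadjusted p under 0.05. Over all tested probes, 0 passed (0%) and 5.31% had an unadjusted p under 0.05. The largest absolute log2 difference among the subunits was 0.26, for Gabrb2, and the smallest was 0.01, for Gabra3. The median over the 9 probes was -0.08, beside 0.00089 over all tested probes. In 0 of the 9 probes were the 3 hypomorph arrays all above or all below the 3 WT arrays, a separation found at 10.5% of all tested probes.

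Each array was checked first against the gene that the allele affects and against markers of the tissue. Sp4 had log2 intensities of 5.99, 5.80 and 6.32 in the hypomorph, against 7.82, 6.86 and 7.35 in WT, on probe ILMN_1259753. Its other probe, ILMN_1253376, was above background on 0 of 3 hypomorph arrays and 3 of 3 WT arrays. Neither passed in limma (adjusted p of 0.355 and 0.354), and which part of the transcript the allele alters is not stated in the labels. The granule cell marker Cbln1, the Purkinje cell marker Pcp2, Pvalb from the interneuron and Golgi cell list and the Bergmann glia marker Gdf10 were above background on all 6 arrays. Over 10 lists of markers of cell types and of other brain regions (the latter with 3 of 10 genes tested), 0 genes passed in limma. The list medians of the log2 difference lay between -0.19 and 0.08. Single markers, named after their values were seen, ran from -1.19 (Rgs5, SE 0.56, groups overlapping) to 1.26 (Slco1a4, SE 0.26, every hypomorph array above WT). Both belong to the endothelial and mural list, with adjusted p of 0.969 and 0.355 in limma. Between 41.2% and 44.5% of all probes were above background on an array. Precision is limited by there being 3 arrays in a group, and 3 against 3 single values cannot reach an exact two-sided permutation p under 0.1.

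Of the 14 subunit probes, 8 were above background (detection p under 0.05) on all 6 arrays, 1 on 4 arrays and 5 on none. All probes of Gabra3, Gabra6, Gabrb1 and Gabrd were above background on every array. The 5 probes not above background belonged to Gabrb2 (2 of its 4 probes) and Gabrg1 (3 of its 4). The annotation assigns those 3 Gabrg1 probes to the cDNA clones AK034085, AK039068 and AK038686, and the Gabrg1 probe with a signal to the reference transcript NM_010252. Gabrb2 did not follow this split. Its reference transcript NM_008070 is given for ILMN_2696413, above background on 6 arrays, and for ILMN_1247588, above background on 0. The clone AK034069 is given for ILMN_1229166, above background on 4. An intensity depends on the sequence of its probe as well as on the transcript, so the subunits were not ranked by level.

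**Figure D1:**
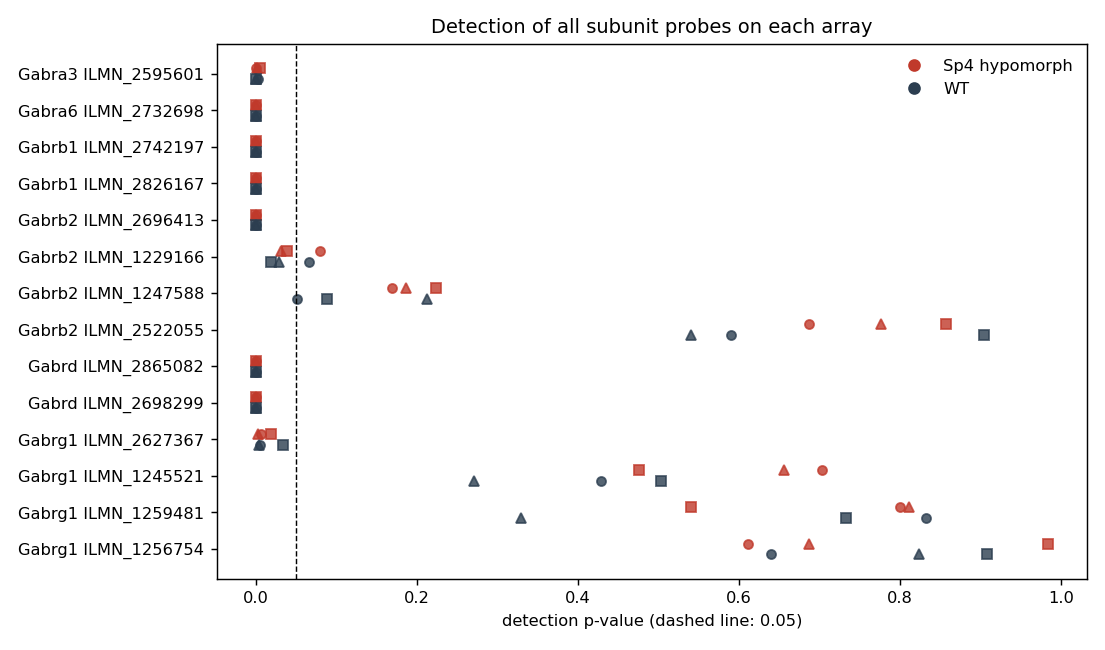
Detection p-value (x axis) of all 14 subunit probes (rows) on each array, with hypomorph arrays in red and WT arrays in dark blue; circles, squares and triangles are the arrays numbered 1, 2 and 3, and the dashed line is 0.05. The 8 probes with every point left of the line were above background on all 6 arrays, and the 5 probes with every point right of it on none.

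The promoters of 3 members show how the family differs in the GC box, GGGCGG or CCGCCC on the other strand, the element that factors of the Sp family are known to bind. The sequences are from RefSeq (GRCm38.p6), run from 250 bases before to 50 bases after the annotated start, and carry the motif in capitals. They lie at chr11:42321023-42321322 on the minus strand for Gabra6, chr5:71657671-71657970 on the plus strand for Gabrb1 and chr11:42420190-42420489 on the plus strand for Gabrb2.
Gabra6: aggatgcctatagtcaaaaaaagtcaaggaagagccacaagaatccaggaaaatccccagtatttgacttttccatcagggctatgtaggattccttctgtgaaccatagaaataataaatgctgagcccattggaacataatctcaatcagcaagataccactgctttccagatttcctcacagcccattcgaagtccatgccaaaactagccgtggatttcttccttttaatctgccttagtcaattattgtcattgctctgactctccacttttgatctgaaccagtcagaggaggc
Gabrb1: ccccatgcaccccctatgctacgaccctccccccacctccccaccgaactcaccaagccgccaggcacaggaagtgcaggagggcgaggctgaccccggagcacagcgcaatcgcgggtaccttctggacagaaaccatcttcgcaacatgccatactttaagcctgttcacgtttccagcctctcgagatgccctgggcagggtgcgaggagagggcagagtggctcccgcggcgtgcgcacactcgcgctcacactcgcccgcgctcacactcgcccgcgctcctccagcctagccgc
Gabrb2: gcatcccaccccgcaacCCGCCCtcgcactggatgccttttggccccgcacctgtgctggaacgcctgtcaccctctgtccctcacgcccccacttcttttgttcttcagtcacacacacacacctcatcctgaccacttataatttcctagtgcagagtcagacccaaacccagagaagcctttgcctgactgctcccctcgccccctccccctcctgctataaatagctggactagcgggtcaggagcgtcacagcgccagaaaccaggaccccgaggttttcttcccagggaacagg
The Gabra6 promoter was poor in G and C (42.0%) with 2 CpG dinucleotides and no GC box. The Gabrb1 promoter was rich in them (66.0%, 25 CpG) and also held no GC box. The Gabrb2 promoter (59.0%, 11 CpG) held 1 GC box, on the minus strand, starting at position -233 from the annotated start. The other 2 starts of Gabrb2, the other start of Gabrb1, the single start of Gabrg1 and both starts of Gabra3 held none in these windows. The Gabra2 promoter, of the member with no expression value here, held 2 GC boxes, with 70.0% G and C and 25 CpG. Of all 32851 promoters of this length in the table, 35.7% held the motif at least once, with a median G and C content of 52.7%. No promoter is shown for Gabrd. A match describes the letters in the window and is not evidence of binding.

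Gabra6 encodes the alpha6 subunit, which in the brain is found almost only in granule cells and makes receptors insensitive to diazepam. Its probe ILMN_2732698 had log2 intensities of 9.66, 9.43 and 9.84 in the hypomorph, against 9.54, 9.95 and 9.73 in WT. The groups overlapped, with WT 2 highest and hypomorph 2 lowest. The means were 9.64 ± 0.21 in the hypomorph and 9.74 ± 0.20 in WT (SD, n = 3 each), a log2 difference of -0.10 (SE 0.17, 95% interval -0.50 to 0.30, adjusted p = 0.999 in limma). As a percentage of WT this interval runs from -29.2% to 23.1%. The small difference shrank to 0.0070 without hypomorph 2 and to 0.0034 without WT 2, both with the sign turned.

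Gabrd encodes the delta subunit, the partner of alpha6 in the receptors that carry tonic inhibition. Its probe ILMN_2865082 had log2 intensities of 11.80, 12.14 and 12.11 in the hypomorph, against 11.95, 12.58 and 12.15 in WT. The second probe, ILMN_2698299, read 11.61, 11.92 and 12.10 in the hypomorph, against 11.83, 12.51 and 11.78 in WT. Both probes were highest on WT 2 and lowest on hypomorph 1, and the groups overlapped. In the deposited intensities, before normalization, ILMN_2865082 stood at 3529, 4246 and 4426 in the hypomorph, against 3975, 6251 and 4589 in WT. The log2 difference was -0.21 (SE 0.20, 95% interval -0.67 to 0.25) on the first probe and -0.16 (SE 0.24, -0.72 to 0.39) on the second. Without WT 2 these became -0.03 and 0.07, smaller on the first probe and with the sign turned on the second.

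Markers of granule cells were set beside these values. The mean of 13 measured granule cell markers, as a log2 distance from each gene's mean over the 6 arrays, was -0.154, 0.068 and 0.175 on the hypomorph arrays, against -0.257, 0.222 and -0.053 on the WT arrays. WT 2 was highest in this mean as well as on both Gabrd probes and Gabra6, whereas on hypomorph 2 the marker mean was above 0 and Gabra6 was at its lowest (-0.26 from its mean). The summed level of these markers ranged from 110130 to 138799 in the hypomorph and from 104593 to 147972 in WT, and 9 of the 13 had higher and 4 lower values in the hypomorph, with a median of 0.06. In a whole tissue, fewer cells of a type and less RNA per cell cannot be told apart, and the part of these markers in the subunit values was not tested.

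**Figure D2:**
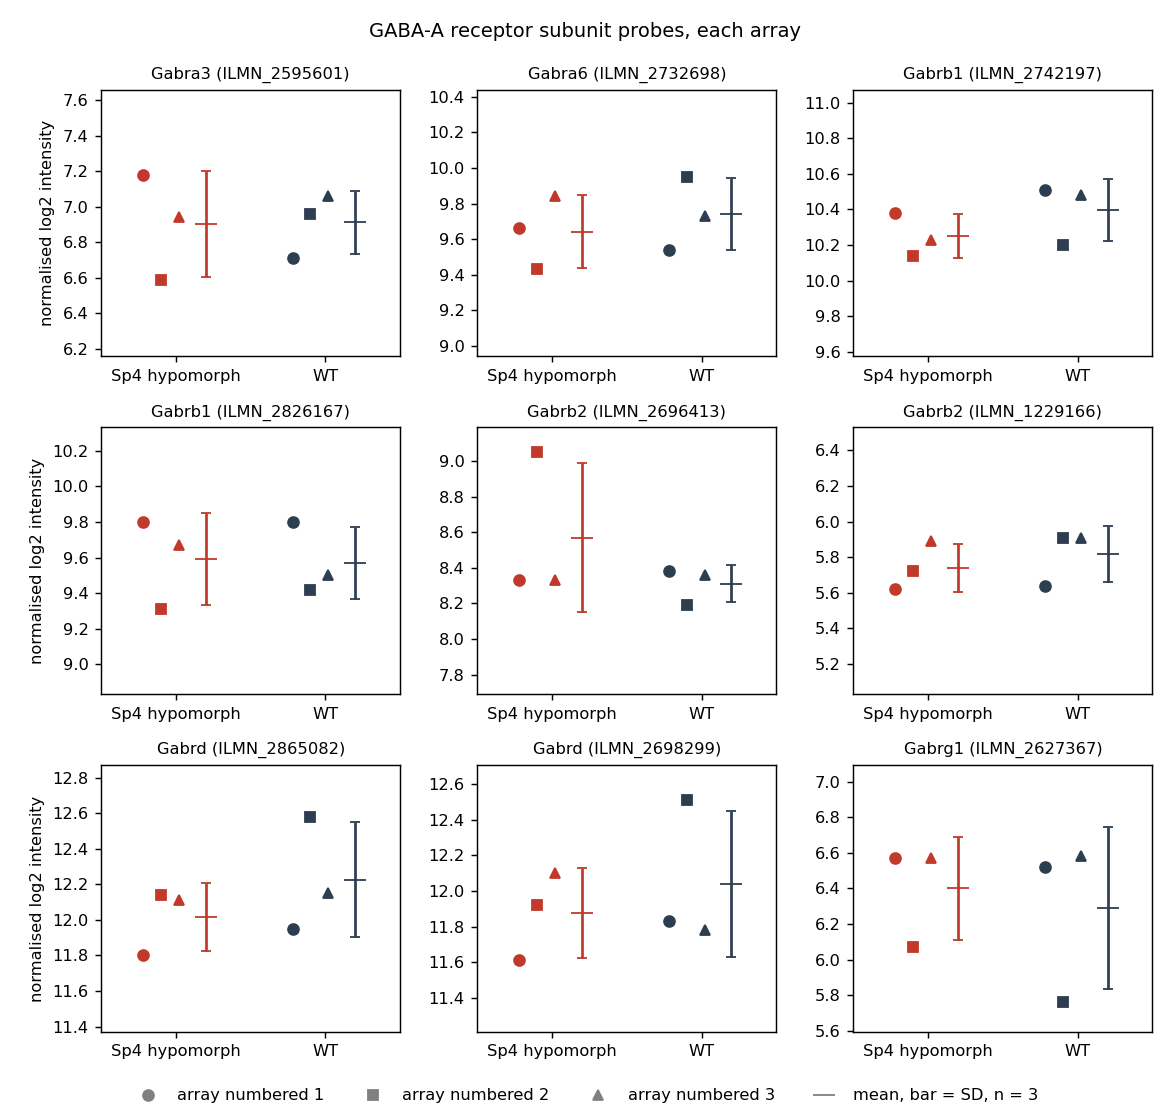
Normalised log2 intensity (y axis) of the 9 tested subunit probes, a panel each, with the 3 hypomorph arrays in red on the left and the 3 WT arrays in dark blue on the right. Bars show mean and SD (n = 3), every panel spans the same log2 range, and the groups overlap in all 9 panels.

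The beta subunits give the receptor its GABA binding face together with alpha, and both Gabrb genes were read by more than 1 probe. Gabrb2, which encodes beta2, had log2 intensities of 8.33, 9.05 and 8.33 in the hypomorph, against 8.38, 8.19 and 8.36 in WT, on ILMN_2696413. Hypomorph 2 stood above all other arrays, and the other hypomorph arrays lay within the range of WT. The deposited intensities were 293.4, 481.9 and 303.6 in the hypomorph, against 309.6, 312.7 and 312.3 in WT. There too hypomorph 2 was highest, while the other hypomorph arrays lay below all 3 WT arrays. The log2 difference was 0.26 (SE 0.22, 95% interval -0.25 to 0.77, adjusted p = 0.999 in limma), and it was 0.02 without hypomorph 2. The second tested probe, ILMN_1229166, was above background on 2 of 3 arrays in each group and read 5.62, 5.72 and 5.89 in the hypomorph, against 5.64, 5.91 and 5.91 in WT. It did not show the high value of hypomorph 2, and its log2 difference was -0.08 (SE 0.15). Which transcripts of Gabrb2 each probe reads was not analysed here.

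Gabrb1, which encodes beta1, had log2 intensities of 10.38, 10.14 and 10.23 in the hypomorph, against 10.51, 10.20 and 10.48 in WT, on ILMN_2742197. On ILMN_2826167 it had 9.80, 9.31 and 9.67 in the hypomorph, against 9.80, 9.42 and 9.50 in WT. The lowest hypomorph and the lowest WT array were those numbered 2 on both probes. The log2 difference was -0.15 (SE 0.15, 95% interval -0.50 to 0.20) on the first probe and 0.02 (SE 0.18, -0.41 to 0.45) on the second. The difference on the first probe ran from -0.25 without WT 2 to -0.09 without WT 1, and that on the second from -0.08 without hypomorph 1 to 0.17 without hypomorph 2.

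**Figure D3:**
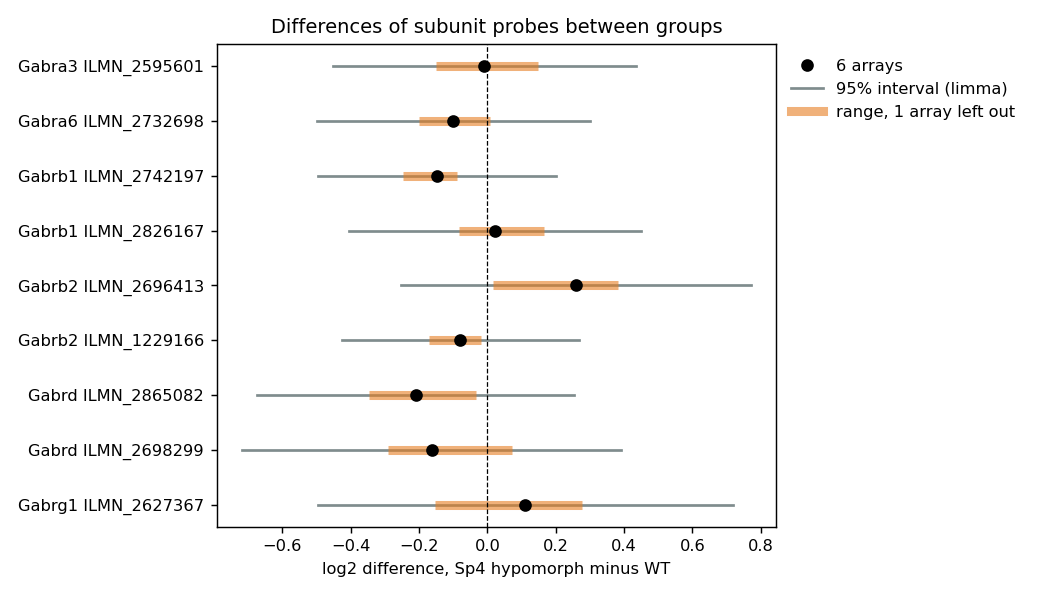
Log2 difference, hypomorph minus WT (x axis), of the 9 tested subunit probes (rows). Black points are the values over 6 arrays, grey lines the 95% intervals and orange bars the range when 1 array is left out; every grey line crosses 0.

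Gabrg1 encodes gamma1, a subunit that gives receptors a lower sensitivity to benzodiazepines than other gamma subunits. Its probe ILMN_2627367 was dim but above background on all arrays, with log2 intensities of 6.57, 6.07 and 6.57 in the hypomorph, against 6.52, 5.76 and 6.58 in WT. In each group the array numbered 2 was the lowest, and the other 4 arrays lay between 6.52 and 6.58. The log2 difference was 0.11 (SE 0.26, 95% interval -0.49 to 0.72), and it became -0.15 without WT 2. The mean of 15 measured markers of Bergmann glia and astrocytes, as a log2 distance from each gene's mean, was 0.164, -0.319 and -0.053 on the hypomorph arrays, against 0.287, -0.188 and 0.110 on the WT arrays. These markers were also lowest on the array numbered 2 in each group, as Gabrb1 was. So were the markers of microglia (-0.121 on hypomorph 2 and -0.225 on WT 2), of choroid plexus, ependyma and meninges (-0.244 and -0.399) and of Purkinje cells (-0.153 and 0.004), those of Golgi cells and interneurons (-0.057 and -0.161), and the genes of GABA synthesis, transport and breakdown (-0.127 and -0.183). Of the 15, 2 had higher and 13 lower values in the hypomorph, with a median of -0.12 and summed levels of 132861 to 162866 in the hypomorph and 141060 to 171604 in WT. Their part in the values of Gabrg1 and Gabrb1 was not tested.

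**Figure D4:**
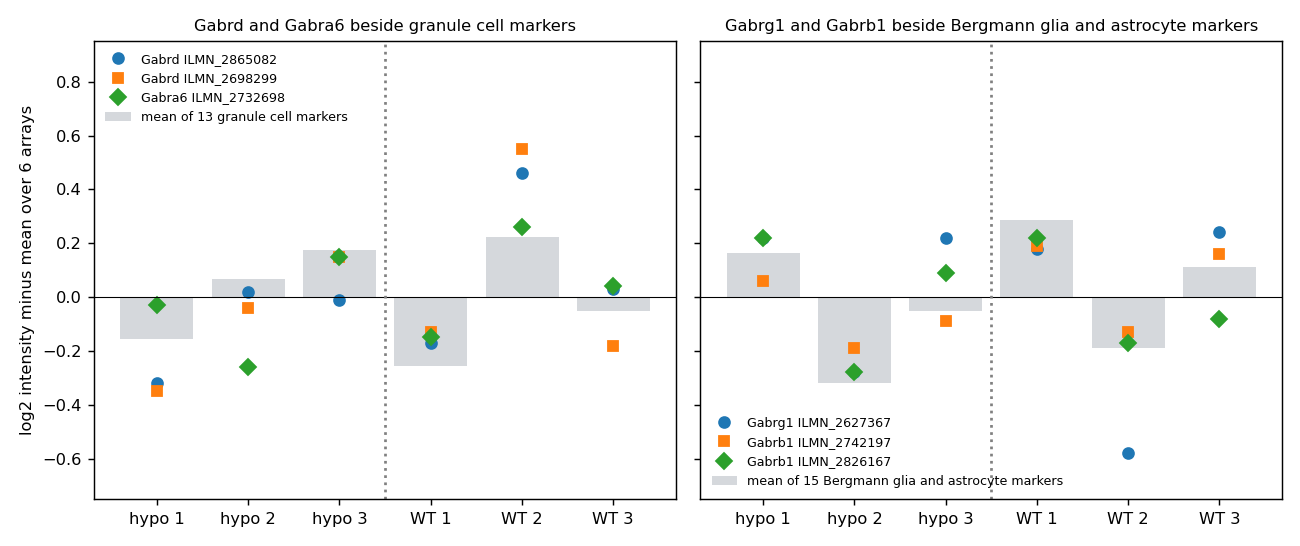
Log2 intensity minus its mean over the 6 arrays (y axis) on each array, hypomorph left of WT. Points are probes of Gabrd and Gabra6 (left panel) and of Gabrg1 and Gabrb1 (right panel), and grey bars are the mean of 13 granule cell markers (left) and of 15 Bergmann glia and astrocyte markers (right); WT 2 is highest in the left panel for all points and the bar.

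Gabra3 encodes alpha3, a subunit known from Golgi cells among the neurons of the cerebellar cortex. Its probe ILMN_2595601 had log2 intensities of 7.18, 6.59 and 6.94 in the hypomorph, against 6.71, 6.96 and 7.06 in WT. The hypomorph held both the highest and the lowest array. The means were 6.90 ± 0.30 in the hypomorph and 6.91 ± 0.18 in WT (SD, n = 3 each), a log2 difference of -0.01 (SE 0.19, 95% interval -0.45 to 0.44). With 1 array left out the difference ran from -0.15 without hypomorph 1 to 0.15 without hypomorph 2. Of 11 measured markers of Golgi cells and molecular layer interneurons, 3 had higher and 8 lower values in the hypomorph, with a median of -0.08. The largest differences were those of Sst (0.49, SE 0.19) and Lgi2 (0.47, SE 0.20), both named after their values were seen. On both, every hypomorph array lay above every WT array (groups did not overlap at 10.5% of all tested probes). Their adjusted p was 0.903 and 0.921 in limma. Summed levels, in which bright probes such as Pvalb weigh most, were 57007 to 63350 in the hypomorph and 57511 to 64322 in WT. The part of these markers in the values of Gabra3 was not tested.

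For the subunit probes, the distance between the highest and the lowest array lay between 0.29 (Gabrb2, ILMN_1229166) and 0.91 (Gabrd, ILMN_2698299) on the log2 scale, beside a median of 0.62 and an upper quartile of 0.89 over all tested probes. Between subunits, by the brightest probe of each gene, the profiles of Gabra3 and Gabra6 were the closest pair, with a root mean square distance of 0.167 over the 6 arrays after each was centred on its mean. They were not close among all tested genes. Gabra6 ranked 614 by nearness to Gabra3, and Gabra3 ranked 1445 by nearness to Gabra6. The root mean square of Gabra6 about its own mean was 0.174, so a flat profile would lie about as near to it. Gabra6 and Gabrd followed at 0.196, farther than a flat profile would lie from Gabra6. Gabrd ranked 2498 by nearness to Gabra6, and Gabra6 ranked 1232 by nearness to Gabrd. The farthest apart were Gabrd and Gabrg1 at 0.53. Among the other named genes of the array, the closest profiles were those of Tmem63c (0.023) and Sh3bgrl2 (0.0231) to Gabra6, and of Hoxb5 (0.0492) and Zadh2 (0.0524) to Gabrd. The Hoxb5 probe was near background, with log2 means of 5.49 in the hypomorph and 5.67 in WT. It was above background on 2 hypomorph arrays and 1 WT array. Slc25a37 (0.0189) and Mtln (0.0291) were closest to Gabrb1, and Pum2 (0.0524) and Ubr2 (0.0542) to Gabrb2. Ccdc136 (0.0317) and Oard1 (0.0474) were closest to Gabra3, and Fam111a (0.0546) and Ndfip2 (0.0553) to Gabrg1. These are the nearest of 10470 candidate genes over only 6 arrays and are given as a description.

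Of 12 other subunit genes of the family, 8 had a probe in the annotation used, and most of these probes were at background. The 8 were Gabra4, Gabra5, Gabrg3, Gabrp, Gabrq, Gabrr1, Gabrr2 and Gabrr3, the last 3 being the rho subunits. Of their 12 probes, 1 could be tested and 11 were above background on no array. The tested one, ILMN_2565748 of Gabrg3, read 5.51, 6.50 and 6.17 in the hypomorph, against 5.37, 6.46 and 5.94 in WT, and was above background on 2 of 3 arrays in each group. Its log2 difference was 0.13 (SE 0.34).

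Genes that place receptors, supply GABA and set its effect were read by the brightest tested probe of each gene. Of 54 genes, with the subunit gene Gabrg3 counted among them, 23 had higher and 31 lower values in the hypomorph. Their median log2 difference was -0.07, and 0 passed over all tested probes. An unadjusted p under 0.05 was found for 1 of them (1.85%, beside 5.31% of all tested probes). The groups did not overlap for 4 (7.41%, beside 10.5%), namely Hap1, Slc12a2, Stk39 and the trafficking protein gene Trak1, the last named after its value was seen.

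Among 21 genes of receptor anchoring, trafficking and assembly, 10 had higher and 11 lower values, with a median of -0.07. Hap1, a protein that links GABA-A receptors to kinesin transport, had the smallest p of all 54. It read 11.06, 11.25 and 11.12 in the hypomorph, against 10.57, 10.80 and 10.78 in WT, on ILMN_1244829. Every hypomorph array lay above every WT array, with a log2 difference of 0.43 (SE 0.14, unadjusted p = 0.0158, adjusted p = 0.790 in limma). Its dimmer probe ILMN_2676208 went the other way, by -0.19 (SE 0.26). The dystroglycan gene Dag1 differed by 0.30 (SE 0.22) and the kinesin gene Kif5a by -0.20 (SE 0.15). Gphn, which encodes the synaptic scaffold gephyrin, differed by 0.10 (SE 0.15), and Nlgn2, an adhesion protein of inhibitory synapses, by 0.10 (SE 0.14), both named after their values were seen.

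Of 13 genes of GABA synthesis, transport and breakdown, 5 had higher and 8 lower values, with a median of -0.06. The smallest p belonged to the glutamine transporter Slc38a1 (log2 difference 0.43, SE 0.31), the GABA transaminase Abat (-0.18, SE 0.14, with 0.08 and 0.15 on its other tested probes) and the glutamine synthetase Glul (0.40, SE 0.38), and 0 passed. The Glul probe was dim, with log2 means of 6.83 in the hypomorph and 6.43 in WT. Gad1 and Gad2, the GABA-making enzymes, differed by -0.13 (SE 0.18) and -0.09 (SE 0.18), again named after their values were seen. The GABA-B receptors and their partners had 4 of 6 higher, with Gabbr1 at 0.24 (SE 0.16), and the auxiliary subunit genes Kctd12 at -0.31 (SE 0.18) and Kctd12b at -0.25 (SE 0.24). The leak potassium channels Kcnk1 and Kcnk3 differed by 0.03 (SE 0.15) and -0.11 (SE 0.35), and Kcnk3 stood at 0.32 without WT 2.

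The genes of the chloride gradient, which sets the direction of the GABA current, had lower values in 9 of 11 and higher in 2, with a median log2 difference of -0.20. None passed. Slc12a2, the chloride importer NKCC1, read 12.99, 12.87 and 12.75 in the hypomorph, against 13.27, 13.13 and 13.10 in WT, on ILMN_2700059. Every hypomorph array lay below every WT array, with a log2 difference of -0.29 (SE 0.13, unadjusted p = 0.0654, adjusted p = 0.969 in limma). Its second tested probe overlapped between the groups and differed by -0.18 (SE 0.16). Stk39, a kinase that activates this importer, also had all hypomorph arrays below WT, with a difference of -0.27 (SE 0.15), and the carbonic anhydrase Car7 differed by -0.46 (SE 0.22). Slc12a5, the chloride exporter KCC2 of neurons, differed by 0.05 (SE 0.33) and was named after its value was seen. Its brightest tested probe was dim, with log2 means of 6.80 in the hypomorph and 6.75 in WT. The summed level of the 11 genes ranged from 25422 to 28635 in the hypomorph and from 28982 to 31699 in WT, a sum in which bright probes weigh most. With each gene weighted equally, as a mean log2 distance from the gene's own mean, the groups overlapped, at 0.087, -0.267 and -0.096 in the hypomorph, against 0.192, 0.008 and 0.076 in WT. Markers of oligodendrocytes had lower values in 11 of 12, with a median of -0.19 and summed levels of 119313 to 141653 in the hypomorph and 131071 to 153364 in WT, and those of Bergmann glia and astrocytes were given above. Their part in the chloride genes was not tested.

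**Figure D5:**
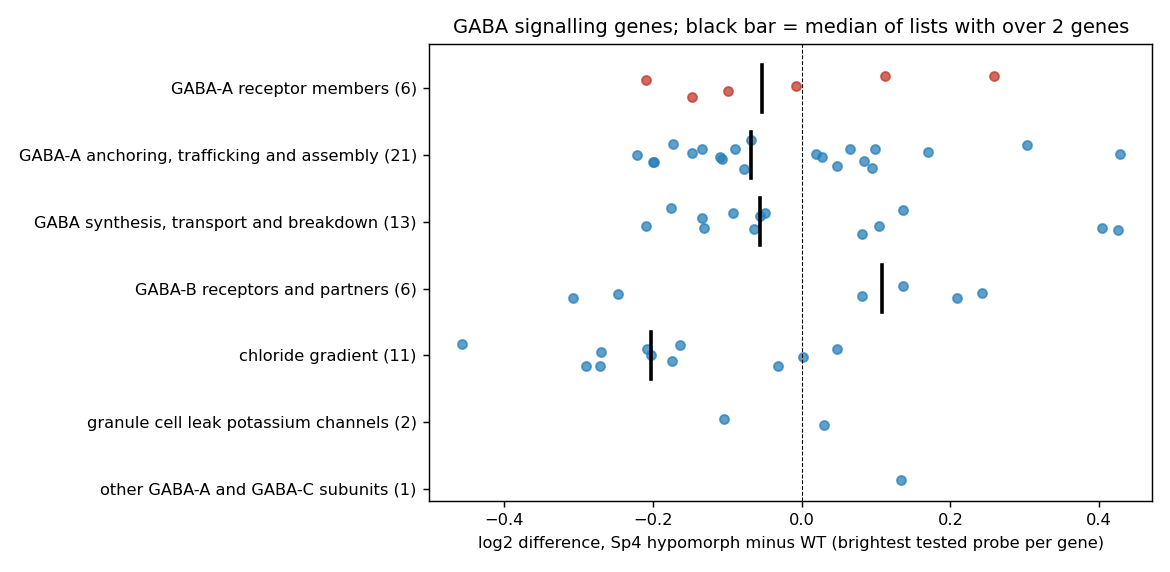
Log2 difference, hypomorph minus WT (x axis), of the brightest tested probe of each gene, by list (rows, with the number of genes in brackets). Red points are the 6 subunit genes, blue points the other lists, black bars the list medians, and the median of the chloride gradient genes lies at -0.20.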

How the data were processed

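Each cerebellum was read on an Illumina bead array, per the labels' protocols, and the submitters' processing notes name BeadStudio. The authors deposited non-normalized intensity values, already background-subtracted since they fall below 0, with a detection p-value per probe and array. A second deposited table holds the authors' processed intensity values, which appear quantile-normalized (sorted values differ by at most 1.71). Its scale is linear, its medians lie between 161.3 and 161.5, and its centring is not stated.

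Background correction, quantile normalization and log2 with an offset of 16 were made with neqc of limma 3.58.1 (R 4.3.3). The offset shrinks differences of dim probes. Tests covered probes whose detection p was under 0.05 on 3 or more arrays, with lmFit and eBayes, hypomorph minus WT, without a block, and adjusted over all 19515. The platform annotation gave the gene names (34885 probes with 1 symbol, 18 with several, 10378 with none), and the GRCm38.p6 gene table altered 0. Of each list, the 3 genes with the smallest p were named, and all subunits. Similar genes are the 2 with the smallest root mean square distance. A simulation with independent normal values for each probe checked only that the mean estimated differences lay near those set. The share of true differences that the test would find with these arrays is not given here. The members, lists and tests were chosen with earlier results of these data known. Each animal was 1 replicate. The alternatives are named in the closing section, and leaving out both arrays numbered 2 was chosen after values were seen.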

Additional observations from a re-analysis of the deposited data

How the results depend on the processing

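Under 16 alternatives, 0 subunit probes, 0 other GABA pathway genes and 0 cell type markers passed limma's adjusted threshold. The lowest adjusted p of a subunit probe was 0.548 and the lowest unadjusted p 0.127. Of 143 subunit values, 125 kept their sign. The count over all probes, 0 of 19515, became 2 with a replicate block, 5 without background correction, 5 with an offset of 50, 8 with the authors' processed values, 3 with probes above background on all 6 arrays, 8 with a variance trend and 13 with array weights, and 0 to 2 with 1 array left out. It stayed at 0 with median scaling, with no filter and without both arrays numbered 2. Same-numbered arrays had deviations from their group mean that correlated at 0.437, 0.4 and 0.0621 over probes, and differently numbered ones at between -0.439 and 0.0434. Deviations within a group sum to 0 at each probe, so a positive correlation of 1 pair forces negative ones in others. The negative values are therefore no separate sign of pairing. The labels do not say that the numbers mark littermate pairs, so the main fit held no block. The replicate block changed no call among the subunits. With it, the probes at an unadjusted p under 0.05 in limma rose from 1036 to 1817. The SE of Gabrg1 fell from 0.26 to 0.13, while that of Gabra6 stayed at 0.17.

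Signs turned for Gabra3 with median scaling (0.033), and with array weights for Gabra6 (0.0076), Gabrd on ILMN_2698299 (0.077) and Kcnk3 (0.13). Without both arrays numbered 2 they turned for Gabra3 (0.17), Gabra6 (0.11), Gabrb2 on ILMN_2696413 (-0.042), Gabrd on ILMN_2698299 (0.051) and Kcnk3 (0.24). With 1 array left out, differences ran from -0.15 to 0.15 for Gabra3, -0.20 to 0.0070 for Gabra6, -0.083 to 0.17 for Gabrb1 on ILMN_2826167, -0.29 to 0.073 for Gabrd on ILMN_2698299, -0.15 to 0.28 for Gabrg1, -0.14 to 0.41 for Gabrg3, -0.059 to 0.13 for Kcnk1 and -0.37 to 0.32 for Kcnk3. The cause of these turns was not tested. Signal over background limits the dim probes of Gabrb2 (ILMN_1229166), Gabrg1, Gabra3, Gabrg3, Glul and Slc12a5.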
